A study of Nannospalax ehrenbergi and Mus musculus with 14 samples.

Results

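The microRNAs described here are the products of a pair of paralogous gene clusters, miR-23a, miR-27a and miR-24-2 (the a cluster) and miR-23b, miR-27b and miR-24-1 (the b cluster). Members were the entries named miR-23a-3p, miR-27a-3p, miR-27a-5p, miR-23b-3p, miR-27b-3p, miR-27b-5p and miR-24-3p, which are 7 of the 1326 names in each deposited table. They were taken by name, with no cut on their values, though earlier results of these data were known when they were chosen. The 14 small-RNA libraries came from the blind mole rat *Spalax* and from mice, which had received 3-methylcholanthrene (3MCA), an agent that induces tumors, under the skin on the left of the neck, in 1 dose of 1 mg in 500 µl for *Spalax* and 200 µg in 200 µl for mice. Every animal used here bore a growth at the injected side (IS), and the uninjected side (UIS) is neck muscle of the same animals, so no library came from an untreated animal. Granulomas, which are benign, were sampled in *Spalax* Sp600 and Sp976 at 14 and 16 months after the injection, and fibrosarcomas, which are malignant, in *Spalax* Sp2240 and Sp2230 at 18 and 30 months. Fibrosarcomas of C57BL/6 mice M512, M1023 and M1019 were sampled at 11, 12 and 14 weeks. The *Spalax* were caught in the field, with an estimated age between 2 and over 10 years, and the mice were 3 to 4 months old. The questions were how each member differed between IS and UIS in each tumor type, and whether the a and the b cluster differed in the same way.

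A microRNA is cut from a hairpin transcript and guides the silencing of messenger RNAs that match its seed, a short stretch near its 5′ end. The a and b forms of miR-23-3p and of miR-27-3p share their seeds. Both clusters give the same mature miR-24-3p, so a sequencer cannot tell which cluster a miR-24-3p read came from. The 3p strand is the one mostly kept from these hairpins, and the 5p strand is the minor product. The clusters are known from blood vessel growth, fat and muscle cell differentiation and muscle wasting. miR-23a and miR-27a are studied as regulators of the ubiquitin ligases of muscle atrophy, and miR-27b as a regulator of Pax3 in muscle precursors.

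The mouse hairpins are shown because the letters that paralogs share set what the counts can separate. They were read from GENCODE M21 (GRCm38). Capitals mark the longest stretch that each hairpin shares with its paralog, and each hairpin is written 5′ to 3′ as DNA.
Mir23a: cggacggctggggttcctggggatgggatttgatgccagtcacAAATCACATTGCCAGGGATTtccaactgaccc
Mir23b: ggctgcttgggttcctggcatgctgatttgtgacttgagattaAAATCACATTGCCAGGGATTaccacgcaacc
Mir27a: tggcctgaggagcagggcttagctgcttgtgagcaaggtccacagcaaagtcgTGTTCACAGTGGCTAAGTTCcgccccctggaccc
Mir27b: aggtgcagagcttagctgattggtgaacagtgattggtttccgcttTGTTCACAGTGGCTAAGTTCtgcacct
Mir24-2: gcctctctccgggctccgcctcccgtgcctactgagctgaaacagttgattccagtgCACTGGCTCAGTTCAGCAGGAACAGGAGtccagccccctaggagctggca
Mir24-1: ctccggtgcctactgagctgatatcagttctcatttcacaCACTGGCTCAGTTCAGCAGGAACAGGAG
The shared stretch was 20 bases in the miR-23 hairpins, 20 in the miR-27 hairpins and 28 in the miR-24 hairpins, and in each it lies toward the 3′ end of the hairpin. The first base after the stretch differs between the paralogs, as T21A from Mir23a to Mir23b and C21T from Mir27a to Mir27b, counted from the first base of the stretch. A read of a 3p strand that ends before that base fits both paralogs, and how the authors' counting divided such reads is not given in the sources used here. The miR-23 and miR-27 stretches have TCACA in common, the longest run of letters they share. No 2 of the 7 members had identical values across the libraries.

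In the mouse genome (GRCm38), the a cluster lies on the plus strand at chr8:84208518-84208921 and spans 404 bases. Mir23a and Mir27a overlap no other annotated gene, and the end of Mir24-2 overlaps an exon of the lincRNA *Gm26532* on the same strand. The b cluster lies on the plus strand at chr13:63300484-63301275 and spans 792 bases. It lies within the protein-coding gene *2010111I01Rik* on the same strand, where Mir23b is intronic and Mir27b and Mir24-1 overlap annotated exons. It also lies in an intron of *Fancc*, a Fanconi anemia gene on the opposite strand. Annotated microRNA genes Mir3074-2 and Mir3074-1 lie antisense to Mir24-2 and Mir24-1.

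Reads assigned to microRNAs numbered between 2034574 and 13982842 per library, and a deposited value, called a normalized count here, is the number of reads divided by the library's size factor. Reads of the *Spalax* libraries were counted under mouse microRNA names. A list of 7 muscle microRNAs took between 27.7% and 37.3% of the reads at the UIS of all animals. At the IS it took between 0.00959% and 0.165% in *Spalax*, and 0.010%, 2.57% and 3.94% in mice M1019, M1023 and M512, although all libraries are labelled muscle tissue. A list of 3 red-cell microRNAs took 18.0% of the reads in the UIS library of mouse M512 and at most 8.16% in the others. A list of 4 leukocyte microRNAs took between 0.0597% and 0.102% at the UIS and between 0.323% and 2.30% at the IS. The 2 microRNAs of the endothelial miR-126 took between 0.323% and 1.64% in all libraries. In bulk tissue, fewer cells of a type and less of a microRNA per cell cannot be told apart, and the part of tissue composition in the results that follow was not tested.

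The 7 members together took between 3.60% and 4.88% of the reads at the UIS of *Spalax* and between 2.46% and 4.47% at the IS. In mice they took between 0.917% and 1.79% at the UIS. At the IS of mice M1019 and M1023 they took 2.97% and 2.94%, and 6.63% in mouse M512. Most of these reads were miR-27b-3p, which ranked 5 among all names by mean normalized count at the UIS of each *Spalax* group and 14 in mouse UIS. Its rank at the IS was 10 in granuloma and 15 and 9 in the fibrosarcomas of *Spalax* and mice.

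With the deposited size factors, the b-cluster members miR-23b-3p, miR-27b-3p and miR-27b-5p and the shared miR-24-3p fell at the IS of both *Spalax* tumor types, while miR-23a-3p and miR-27a-3p did not pass the test there. Under scaling to library totals, miR-23b-3p and miR-24-3p in granuloma turned to slightly positive values and these falls no longer passed the test, except that of miR-27b-3p in *Spalax* fibrosarcoma. The test was limma on log2(normalized count + 1), with SE for the standard error of a log2 fold change and with p-values adjusted by the Benjamini-Hochberg method over all microRNAs tested and a threshold of 0.05. On this scale the change of a microRNA with few reads is understated. In granuloma, 5 of the 7 members passed, against 48.3% of all 447 microRNAs tested, and 4 of the 7 were lower, against 22.8%. In *Spalax* fibrosarcoma, 4 of the 7 passed, against 37.4%, and all 4 were lower, against 22.1%. In mouse fibrosarcoma, 3 of the 7 passed, against 57.8% of all 547 microRNAs tested, and all 3 were lower, against 25.6%. Over the members, the median log2 fold change was -1.49, -1.75 and -0.99 in these comparisons, beside 0.13, -0.23 and 0.21 over all microRNAs tested.

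**Figure D1:**
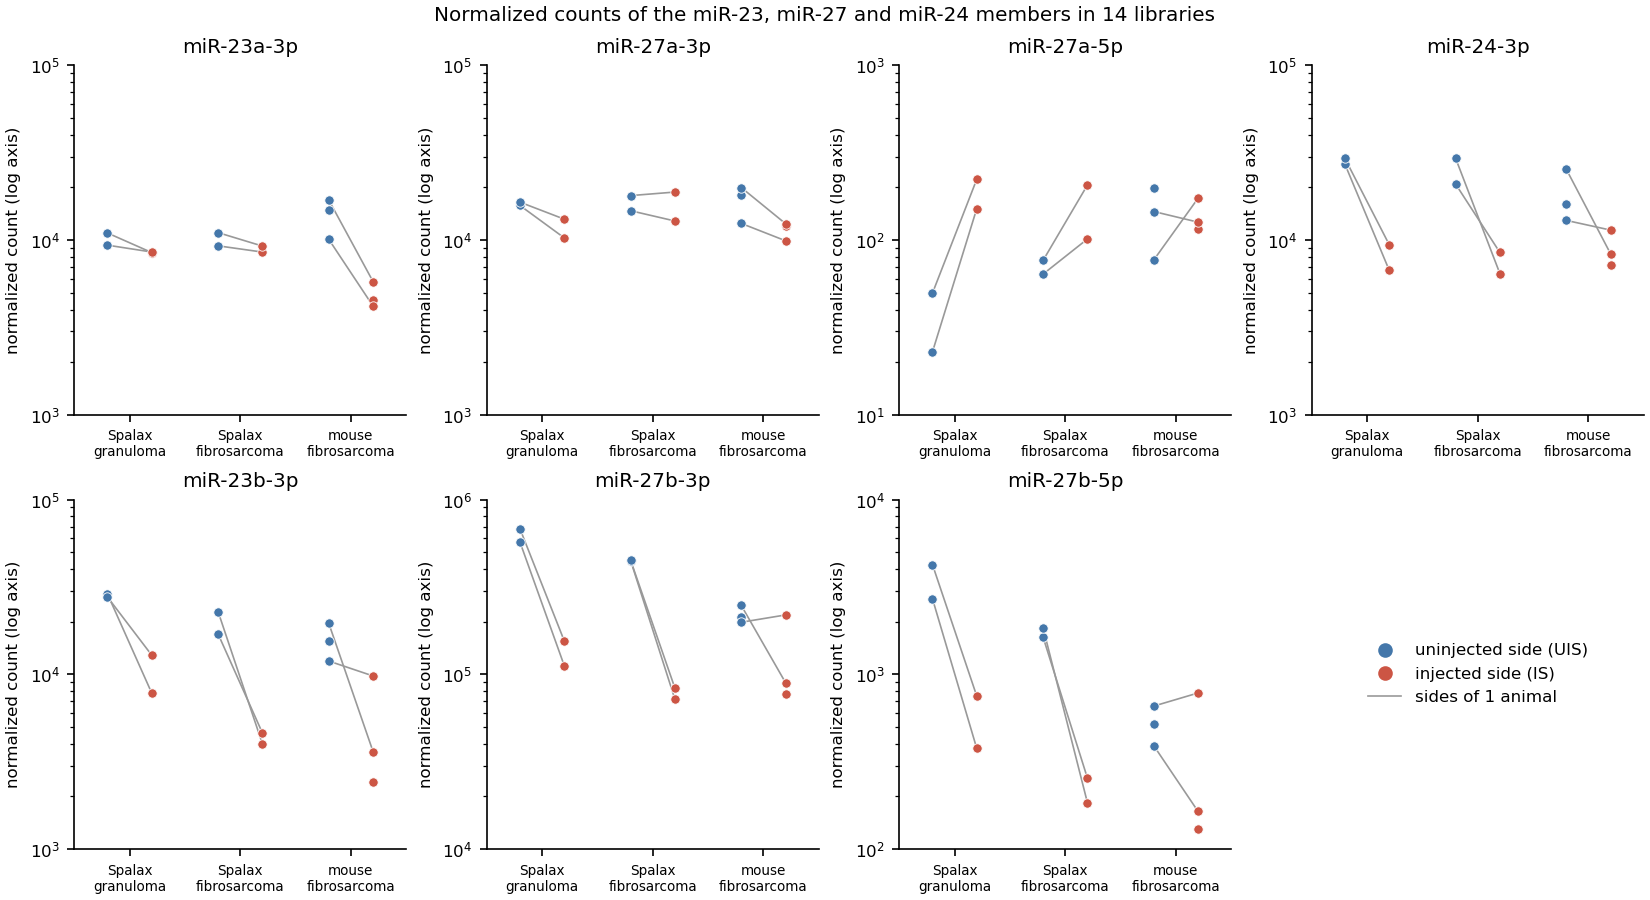
Normalized counts (reads over the library's size factor, log axis) of the 7 members in the 14 libraries, with blue points for the uninjected side, red points for the injected side and lines joining the sides of a numbered animal. With these factors the b forms and miR-24-3p lie lower at the injected side in all 4 *Spalax* (miR-23b-3p and miR-24-3p in granuloma turn slightly positive under library totals). The sides of the a 3p forms lie close together in *Spalax*. In mice the sides overlap for miR-27b-3p, miR-27b-5p and miR-27a-5p, and not for the other members, miR-23a-3p included. The mouse and *Spalax* values were normalized separately.

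miR-27b-3p was the most abundant member in every library. In granuloma-bearing animals Sp600 and Sp976 its normalized counts were 570732 and 679758 at the UIS and 112123 and 155360 at the IS. In fibrosarcoma-bearing *Spalax* Sp2230 and Sp2240 they were 447261 and 448662 at the UIS and 71999 and 83355 at the IS. All 4 UIS libraries lay above all 4 IS libraries, and those of the granuloma-bearing animals were above those of the fibrosarcoma-bearing ones on both sides. The log2 fold change was -2.24 in granuloma (SE 0.27, adjusted p = 0.000703) and -2.53 in *Spalax* fibrosarcoma (SE 0.27, adjusted p = 0.000719), and with library totals -0.39 (adjusted p = 0.225) and -0.84 (adjusted p = 0.0316).

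In mice, miR-27b-3p had 198392 normalized counts in animal M512, 247389 in animal M1023 and 213391 in the unnumbered library at the UIS. The unnumbered library is the one listed for mouse M1019, whose column carries another animal number, and it was therefore not paired. At the IS the values were 76582 in mouse M1019, 89429 in mouse M1023 and 218433 in mouse M512. The tumor of mouse M512 thus lay within the range of the UIS libraries, and the others lay below it. This gave a log2 fold change of -0.94 (SE 0.42), which did not pass (adjusted p = 0.0950). Without the tumor library of mouse M512 it was -1.40 and passed (adjusted p = 0.00574), and scaled to library totals it was 1.45 (adjusted p = 0.0280).

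miR-23b-3p, made from the first hairpin of the same cluster, had 28844 and 27676 normalized counts at the UIS of animals Sp600 and Sp976 and 7813 and 12866 at the IS. In *Spalax* Sp2230 and Sp2240 it had 16995 and 22819 at the UIS and 4619 and 4005 at the IS. The sides did not overlap in either tumor type. In log2 terms the level fell by 1.49 in granuloma (SE 0.36, adjusted p = 0.0130) and by 2.19 in *Spalax* fibrosarcoma (SE 0.36, adjusted p = 0.00325). With library totals the change was 0.35 (adjusted p = 0.412) in granuloma, of the opposite sign, and -0.51 (adjusted p = 0.273) in *Spalax* fibrosarcoma. The granuloma call was lost without the IS or the UIS library of animal Sp600 (adjusted p = 0.0727 and 0.0712) or the UIS library of animal Sp976 (adjusted p = 0.0643).

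In mice, miR-23b-3p ranged from 11899 (mouse M512) to 19565 (mouse M1023) at the UIS, with 15431 in the unnumbered library. At the IS it was 2428 in mouse M1019, 3612 in mouse M1023 and 9776 in mouse M512. The sides did not overlap, and the tumor of mouse M512 lay nearest to the UIS. A log2 fold change of -1.80 (SE 0.54) passed (adjusted p = 0.0268), and with library totals the change was 0.59 (adjusted p = 0.406). The call was lost with the animal as a replicate block (-1.36, adjusted p = 0.102). It was also lost without any 1 of the 6 mouse libraries other than the tumor of mouse M512, without which it was -2.37.

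miR-27b-5p, the minor strand of the miR-27b hairpin, moved with the 3p strand in *Spalax*. It had 2707 and 4244 normalized counts at the UIS of animals Sp600 and Sp976 and 377 and 751 at the IS. In animals Sp2230 and Sp2240 it had 1628 and 1838 at the UIS and 255 and 184 at the IS. No IS library reached a UIS library. The changes were -2.67 in granuloma (SE 0.48, adjusted p = 0.00397) and -2.99 in *Spalax* fibrosarcoma (SE 0.48, adjusted p = 0.00301) on the log2 scale. Scaled to library totals they were -0.83 (adjusted p = 0.165) and -1.31 (adjusted p = 0.0554). In mice it was 131 in mouse M1019, 164 in mouse M1023 and 781 in mouse M512 at the IS, against 390, 657 and 521 in mice M1023 and M512 and the unnumbered library at the UIS. The tumor of mouse M512 was the highest of the 6 mouse libraries, the sides overlapped, and a log2 fold change of -0.99 (SE 0.71) did not pass (adjusted p = 0.255). It was 1.38 (adjusted p = 0.113) with library totals, and without the tumor of mouse M512 it was -1.80 with the deposited factors and passed (adjusted p = 0.00988).

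miR-24-3p, which both clusters make, had 27152 and 29280 normalized counts at the UIS of animals Sp600 and Sp976 and 6714 and 9405 at the IS. In animals Sp2230 and Sp2240 it had 20897 and 29356 at the UIS and 8484 and 6427 at the IS. In mice it ranged from 12944 to 25424 at the UIS and from 7165 to 11392 at the IS. The sides did not overlap in any of the 3 comparisons, and the IS library nearest to the UIS in mice was again that of mouse M512. Log2 fold changes were -1.83 for granuloma (SE 0.35, adjusted p = 0.00513), -1.75 for *Spalax* fibrosarcoma (SE 0.35, adjusted p = 0.00772) and -0.99 for mouse fibrosarcoma (SE 0.36, adjusted p = 0.0493). With library totals they were 0.02 (adjusted p = 0.967), -0.06 (adjusted p = 0.900) and 1.39 (adjusted p = 0.0294). The *Spalax* fibrosarcoma call was lost without the UIS library of animal Sp2240 (adjusted p = 0.0688). The mouse call was lost with the replicate block (-0.90, adjusted p = 0.170), in 4 of 6 cases where a library was left out (the tumor of mouse M1019 or M1023, the UIS library of mouse M1023 or the unnumbered one), and it held as a fall in 2 of 9 alternative settings (DESeq2 and factors without the muscle microRNAs).

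miR-23a-3p of the a cluster was nearly level in *Spalax* with the deposited size factors. It had 10970 and 9341 normalized counts at the UIS of animals Sp600 and Sp976 and 8475 and 8533 at the IS, and in animals Sp2230 and Sp2240 it had 9258 and 11018 at the UIS and 8527 and 9230.1 at the IS. Every IS library lay below the UIS libraries of its own tumor type, by little. Its change was -0.25 in granuloma (95% interval -0.97 to 0.46, SE 0.31, adjusted p = 0.523) and -0.19 in *Spalax* fibrosarcoma (95% interval -0.90 to 0.53, SE 0.31, adjusted p = 0.659) on the log2 scale. With library totals it was 1.59 (adjusted p = 0.00285) and 1.50 (adjusted p = 0.00453), both past the threshold.

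In mice, miR-23a-3p was 16938 in mouse M1023, 10087 in mouse M512 and 14824 in the unnumbered library at the UIS. At the IS it was 4534, 5784 and 4185 in mice M1019, M1023 and M512. All 3 tumors lay below all 3 UIS libraries, mouse M512 included. The fall of 1.51 on the log2 scale (-1.51, SE 0.32) passed (adjusted p = 0.00759). This was the member whose call held with the replicate block (-1.41, adjusted p = 0.0353), and it was 0.87 (adjusted p = 0.119) scaled to library totals.

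miR-27a-3p had 15758 and 16461 normalized counts at the UIS of animals Sp600 and Sp976 and 10284 and 13161 at the IS. In animals Sp2230 and Sp2240 it had 14706 and 17947 at the UIS and 12842 and 18807 at the IS. The sides overlapped in *Spalax* fibrosarcoma and not in granuloma. The log2 fold change was -0.47 in granuloma (95% interval -1.25 to 0.32, SE 0.34, adjusted p = 0.284) and -0.06 in *Spalax* fibrosarcoma (95% interval -0.85 to 0.72, SE 0.34, adjusted p = 0.901). In mice it ranged from 12439 to 19950 at the UIS and from 9897 to 12396 at the IS, without overlap, and the log2 fold change was -0.54 (SE 0.30, adjusted p = 0.160). With library totals the 3 changes were 1.37 (adjusted p = 0.00806), 1.62 (adjusted p = 0.00510) and 1.85 (adjusted p = 0.00733).

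miR-27a-5p, the minor strand of the miR-27a hairpin, was the member that rose with the deposited size factors, and it rests on few reads, between 18 and 320 per library. It had 49.6 and 22.9 normalized counts at the UIS of animals Sp600 and Sp976 and 222 and 151 at the IS. In animals Sp2230 and Sp2240 it had 63.8 and 76.4 at the UIS and 101 and 206 at the IS. The sides did not overlap in either *Spalax* tumor type. An increase of 2.40 on the log2 scale in granuloma passed (SE 0.59, adjusted p = 0.0130), and that of 1.04 in *Spalax* fibrosarcoma did not (SE 0.59, adjusted p = 0.205). The granuloma call was lost without the IS library of animal Sp600 (adjusted p = 0.0668) or the UIS library of animal Sp976 (adjusted p = 0.0919). In mice the values overlapped, from 76.9 to 198 at the UIS and from 116 to 173 at the IS (log2 fold change 0.07, SE 0.47, adjusted p = 0.914). Scaled to library totals, the 3 changes were 4.20, 2.71 and 2.43 (adjusted p = 0.000920, 0.00612 and 0.00886).

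**Figure D2:**
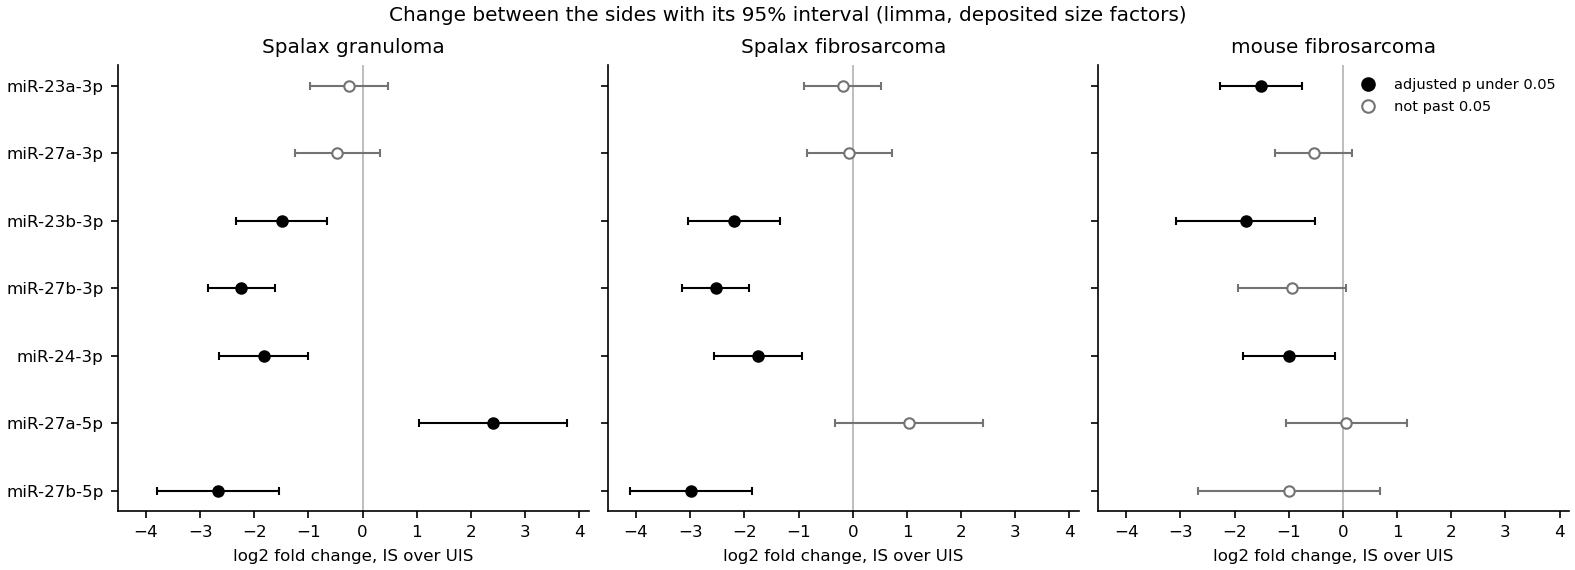
Log2 fold changes between the injected and uninjected sides of each member, from limma on the deposited values, with bars for the 95% interval and filled points for an adjusted p-value under 0.05. In both *Spalax* panels the b forms and miR-24-3p lie left of 0 with their whole interval and the a 3p forms do not, and scaling to library totals moves all points to the right and brings miR-23b-3p and miR-24-3p in granuloma above 0.

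The choice of size factor sets where 0 lies. Over all microRNAs tested, the median change in granuloma was 0.13 with the deposited factors and 1.90 with library totals. The same medians were -0.23 and 1.40 for *Spalax* fibrosarcoma, and 0.21 and 2.58 for that of mice. Of the microRNAs called, the share higher at the IS was 52.8% and 83.5% in granuloma, 40.7% and 82.5% in *Spalax* fibrosarcoma, and 55.7% and 92.3% in mice. With library totals, the members called were 3 higher and 0 lower in granuloma, where 303 of all 447 microRNAs tested were called. They were 3 higher and 1 lower in *Spalax* fibrosarcoma, beside 234 of 447 called. In mouse fibrosarcoma they were 4 higher and 0 lower, beside 404 of 547 called. A change of scaling shifts every log2 fold change by nearly the same amount. Changes relative to the median of all microRNAs therefore stay nearly the same by construction, and are given as a description. The change of miR-27b-3p less that median was -2.37 with the deposited factors and -2.30 with library totals in granuloma, and -2.30 and -2.25 in *Spalax* fibrosarcoma. Those of miR-23b-3p were -1.62 and -1.55 in granuloma and -1.96 and -1.91 in *Spalax* fibrosarcoma. Those of miR-23a-3p were -0.38 and -0.31 in granuloma and 0.04 and 0.10 in *Spalax* fibrosarcoma. In mice all 7 members lay below the median on both scales, from -2.01 to -0.15 with the deposited factors and from -1.99 to -0.15 with library totals.

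**Figure D3:**
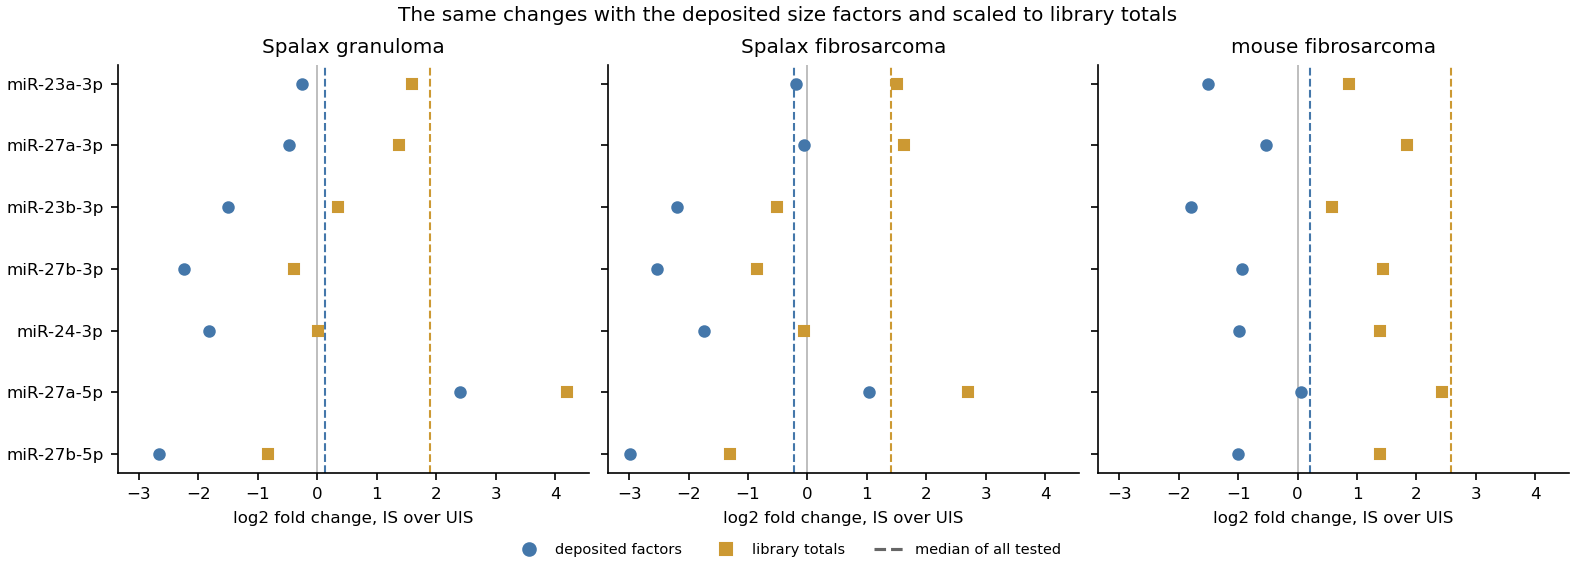
Log2 fold changes of the members with the deposited size factors (circles) and with reads scaled to library totals (squares), with dashed lines at the median of all microRNAs tested on the same scale. All points and the median move right together, so that 7 of 7 members lie above 0 in mice under library totals and 1 of 7 with the deposited factors.

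The ratio of the a to the b form within a library does not depend on the size factor, so it compares the clusters free of the scaling. Efficiencies of ligation and amplification differ between microRNAs, so the ratio itself is not a ratio of molecules, and only its difference between libraries is read. For miR-27-3p, the linear ratio of a to b was between 0.0242 and 0.0400 at the UIS of the 4 *Spalax*. At the IS it was 0.0917 and 0.0847 in granulomas Sp600 and Sp976, and 0.178 and 0.226 in fibrosarcomas Sp2230 and Sp2240. Every *Spalax* tumor thus had a higher share of the a form than every *Spalax* UIS library, and the fibrosarcomas more than the granulomas. In mice the ratio was between 0.0627 and 0.0849 at the UIS, 0.157 and 0.139 in the tumors of mice M1019 and M1023, and 0.0453 in that of mouse M512. The tumor of mouse M512 was the one that lay on the other side of the UIS libraries.

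For miR-23-3p, the ratio was between 0.338 and 0.545 at the UIS of *Spalax*, 1.08 and 0.663 in granulomas Sp600 and Sp976, and 1.85 and 2.30 in fibrosarcomas Sp2230 and Sp2240. The b form was thus the more counted at every *Spalax* UIS, and the a form in both fibrosarcomas and the granuloma of animal Sp600. In mice the ratio was between 0.848 and 0.961 at the UIS, 1.87 and 1.60 in the tumors of mice M1019 and M1023 and 0.428 in that of mouse M512. For the minor strands, miR-27a-5p over miR-27b-5p, the ratio was between 0.00539 and 0.0416 at the UIS of *Spalax*. It was 0.589 and 0.201 in granulomas Sp600 and Sp976, and 0.397 and 1.12 in fibrosarcomas Sp2230 and Sp2240, so the sides did not overlap. In mice it was 0.380 in the unnumbered library, 0.373 in mouse M1023 and 0.117 in mouse M512 at the UIS, and 0.889, 0.771 and 0.222 in the tumors of mice M1019, M1023 and M512.

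Over all 14 libraries, the log2 ratio of a to b rose at the IS for the 3 pairs tested. The test was an exact two-sided permutation of the side labels within conditions (720 arrangements, smallest possible p 0.00278). The mean difference was 1.05 for miR-23-3p, a 2.07-fold rise (exact p = 0.0417, adjusted over the 3 ratios 0.0417). It was 1.38 for miR-27-3p, or 2.61-fold (exact p = 0.0139, adjusted 0.0208), and 3.05 for miR-27-5p, or 8.31-fold (exact p = 0.00833, adjusted 0.0208). Within the 6 numbered animals, the ratio was higher at the IS in 5 of 6 for miR-23-3p, 5 of 6 for miR-27-3p and 6 of 6 for miR-27-5p, the exception being mouse M512 for both 3p strands. In this paired form, an exact sign-flip test that cannot go below 0.0312, the mean differences were 1.07 ± 1.13, 1.46 ± 1.13 and 3.36 ± 1.96 (SD, n = 6). The exact sign-flip p-values were 0.125, 0.0625 and 0.0312, the last being the smallest possible. None of the 3 passed after adjustment (exact adjusted p = 0.125, 0.0938 and 0.0938). The call for miR-23-3p was also lost when any of 6 single libraries was left out. The 5p strands of the miR-24 hairpins, also counted by cluster, were not part of this test. The log2 ratio of miR-24-2-5p to miR-24-1-5p differed between the sides by -0.42 in granuloma, 2.37 in *Spalax* fibrosarcoma and 0.19 in mice.

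By condition, the rise was larger in *Spalax* than in mice, a difference that was not tested. For miR-27-3p it was 1.77 in granuloma, from -5.27 ± 0.13 to -3.50 ± 0.08 (SD, n = 2 each) on the log2 scale, and 2.47 in *Spalax* fibrosarcoma, from -4.79 ± 0.20 to -2.32 ± 0.24 (SD, n = 2 each). In mice it was 0.40, from -3.73 ± 0.23 to -3.33 ± 0.99 (SD, n = 3 each). For miR-23-3p the differences were 1.24, 2.01 and 0.29, and for miR-27-5p 5.07, 4.03 and 1.06. A condition alone cannot reach 0.05, since the smallest exact p is 0.333 in each *Spalax* condition and 0.1 in mice. With the *Spalax* libraries alone the differences were 1.63, 2.12 and 4.55 (exact p = 0.0556 each, the smallest possible). With the mouse libraries alone they were smaller than the spread among the tumors for the 3p strands, at 0.29 and 0.40, with exact p = 0.900 and 0.500, and 1.06 with exact p = 0.300 for miR-27-5p. Without the tumor library of mouse M512, the pooled differences were 1.40, 1.73 and 3.60. The exact p was then the smallest possible for each (0.00278), since every IS library left lay above the UIS libraries of its condition. It is no further support, because the library left out held the exception for the 3p strands. Among all tumors, the muscle list was highest in that of mouse M512, at 3.94% of reads, and so was the red-cell list, at 3.31%. The muscle list took 2.57% in the tumor of mouse M1023, whose ratios were close to those of mouse M1019 with 0.010%. Whether tissue content bears on the ratios was not tested.

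**Figure D4:**
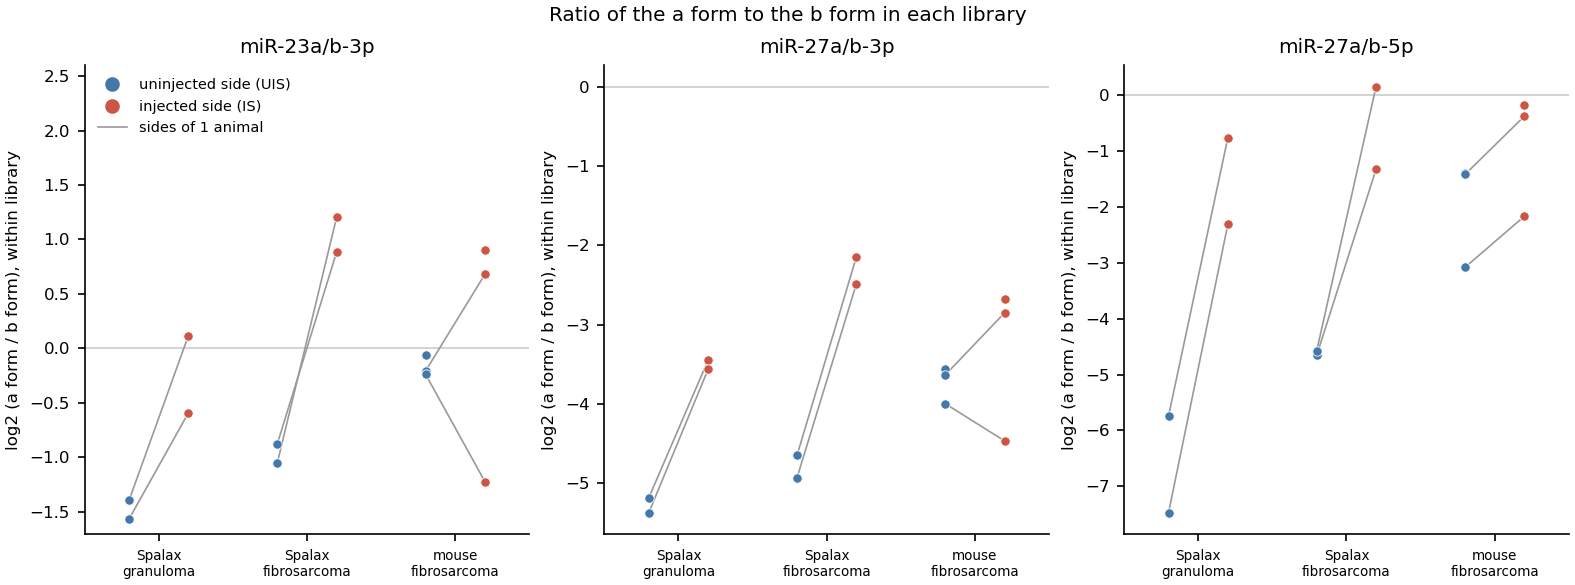
Log2 ratio of the a form to the b form in each library for miR-23-3p, miR-27-3p and miR-27-5p, with lines joining the sides of a numbered animal and a grey line where the forms had equal counts. All 4 *Spalax* lines rise in every panel, and the line of mouse M512 falls for both 3p strands.

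The changes of the members were compared between the *Spalax* tumor types directly, as the change in granuloma less that in *Spalax* fibrosarcoma. None of the 7 passed with limma, against 3.8% of 447 microRNAs, and 0 had an unadjusted p under 0.05, against 95 of 447. edgeR and DESeq2 on the recovered reads also called 0 members. Of the 447 microRNAs, edgeR called 21 with either set of factors and DESeq2 called 58. The largest estimates were 1.37 for miR-27a-5p (SE 0.83, 95% interval -0.57 to 3.30, adjusted p = 0.422) and 0.70 for miR-23b-3p (SE 0.51, 95% interval -0.49 to 1.89, adjusted p = 0.523). For miR-27b-3p it was 0.29 (95% interval -0.59 to 1.17) and for miR-24-3p -0.08 (95% interval -1.24 to 1.07). These intervals leave room for differences of over 1 on the log2 scale.

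The strands of the miR-27 hairpins were then compared within each library, with no test. The 3p to 5p ratio of miR-27a at the IS less that at the UIS was -2.87 on the log2 scale in granuloma, -1.10 in *Spalax* fibrosarcoma and -0.60 in mice, and it was lower at the IS in all 6 numbered animals. In granuloma-bearing animals Sp600 and Sp976, 318 and 720 reads of the 3p strand were counted for each read of the 5p strand at the UIS, and 46.3 and 87.3 at the IS. The same ratio of miR-27b was 211 and 160 at their UIS and 297 and 207 at their IS, so it was higher at the IS where that of miR-27a was lower. The log2 difference of the miR-27b ratio was 0.43 in granuloma, 0.46 in *Spalax* fibrosarcoma and 0.06 in mice. Within animals the miR-27b ratio was higher at the IS in all 4 *Spalax* and lower in both numbered mice, with 545 against 635 in mouse M1023 and 280 against 302 in mouse M512.

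The miR-27-3p to miR-23-3p ratio compares neighbors of the same cluster within a library, also with no test. For the a cluster it was between 1.18 and 1.23 at the UIS of mice and 2.65, 2.14 and 2.36 in the tumors of mice M1019, M1023 and M512. The mouse sides thus did not overlap, and mouse M512 lay with the other tumors. In *Spalax* the a-cluster ratio was between 1.44 and 1.76 at the UIS and between 1.21 and 2.04 at the IS, with the sides overlapping. For the b cluster the ratio was between 12.6 and 16.7 at the UIS of mice and between 22.3 and 31.5 in their tumors. In *Spalax* it was between 19.7 and 26.3 at the UIS and between 12.1 and 20.8 at the IS. The b-cluster ratio was thus higher in every mouse tumor than at the mouse UIS. In granuloma it was lower at the IS, at 14.4 and 12.1 against 19.8 and 24.6 at the UIS, and in *Spalax* fibrosarcoma the sides overlapped.

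The 5p strands of the miR-24 hairpins differ in sequence, so they are counted by cluster. miR-24-1-5p of the b cluster had 196 and 215 normalized counts at the UIS of animals Sp600 and Sp976 and 39.9 and 54.5 at the IS. In animals Sp2230 and Sp2240 it had 110 and 186 at the UIS and 19.1 and 8.68 at the IS, the last from 4 reads. It fell in both, with log2 fold changes of -2.11 (SE 0.55, adjusted p = 0.0173) and -3.37 (SE 0.55, adjusted p = 0.00325). In mice it had a log2 fold change of -0.61 (adjusted p = 0.382), which turned to 1.73 with library totals and passed (adjusted p = 0.0362). miR-24-2-5p of the a cluster fell in granuloma (-2.53, SE 0.60, adjusted p = 0.0121), from 73.7 and 43.2 to 6.24 and 12.7, where 5 and 10 reads were counted. With library totals, the granuloma changes of miR-24-1-5p and miR-24-2-5p were -0.29 and -0.78 and did not pass, and that of miR-24-1-5p in *Spalax* fibrosarcoma was -1.74 and passed (adjusted p = 0.0348). Both granuloma calls were lost without either library of animal Sp600, and that of miR-24-1-5p also without the UIS library of animal Sp976 (adjusted p from 0.0673 to 0.0916). In *Spalax* fibrosarcoma miR-24-2-5p went from 30.1 and 38.8 to 21.2 and 13.0 (-0.99, adjusted p = 0.231), and mice had a log2 fold change of -0.42 (adjusted p = 0.279). With library totals these values of miR-24-2-5p turned to 0.62, which did not pass, and 1.96, which did (adjusted p = 0.00501). In *Spalax* fibrosarcoma the ratio of miR-24-2-5p to miR-24-1-5p, which needs no scaling, was 0.275 and 0.208 at the UIS of animals Sp2230 and Sp2240. It was 1.11 and 1.50 at their IS, the last from only 6 reads over 4 reads. In granuloma the sides overlapped.

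The species did not overlap in miR-24-2-5p. In the *Spalax* table, which scales 5 of the mouse libraries together with the *Spalax* ones, it had between 1565 and 2192 normalized counts at the UIS of 2 mice and between 30.1 and 73.7 at the UIS of the 4 *Spalax*. At the IS it had between 1286 and 1668 in mice and between 6.24 and 21.2 in *Spalax*. The ratio of miR-24-2-5p to miR-24-1-5p was between 18.5 and 61.1 in mice and between 0.156 and 1.50 in *Spalax*. The levels of miR-24-3p at the UIS in that table were 10507 and 19180 in mice and from 20897 to 29356 in *Spalax*. *Spalax* reads were counted under mouse names, and whether the *Spalax* hairpin differs in sequence was not tested.

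**Figure D5:**
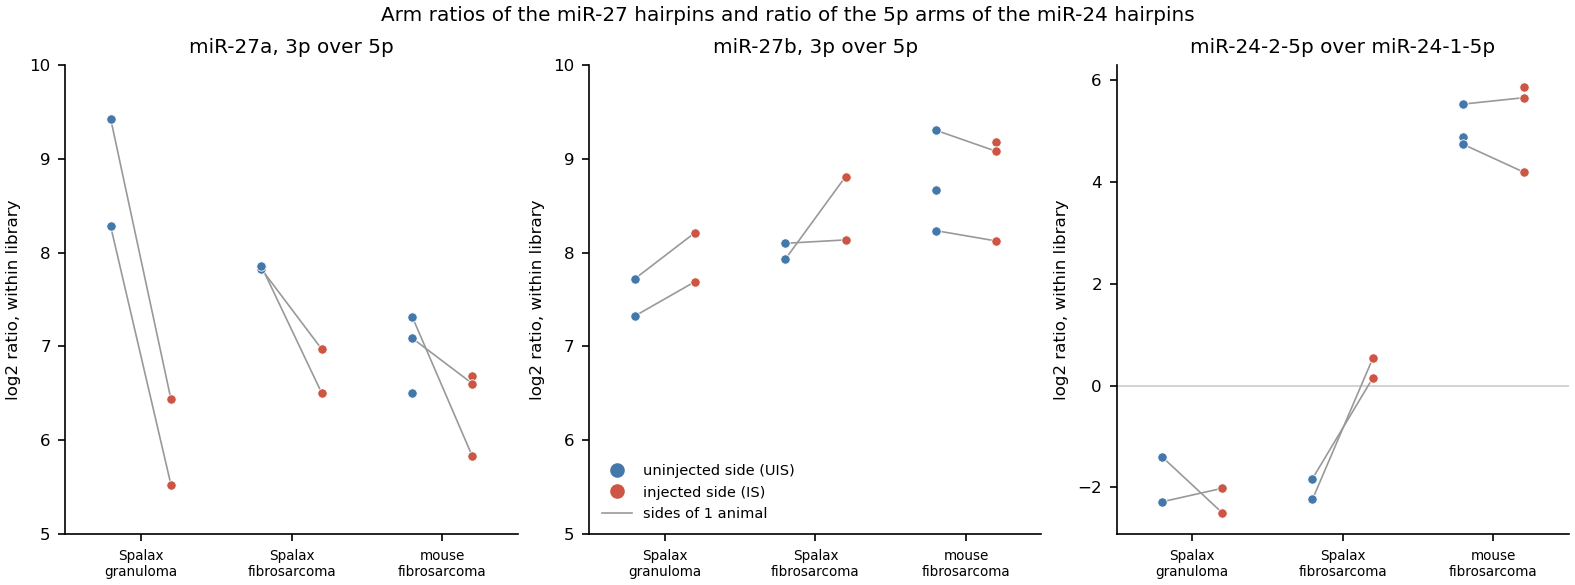
Log2 ratios within each library of the 3p to the 5p strand of miR-27a and of miR-27b, and of miR-24-2-5p to miR-24-1-5p, by condition and side. The miR-27a ratio is lower at the injected side in every numbered animal, and the miR-24 ratio lies above 4 in all mouse libraries and below 1 in all *Spalax* libraries.

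The remaining strands of the clusters and their neighbors gave few reads or no call. miR-23a-5p had between 1.92 and 16.2 normalized counts and miR-23b-5p between 0 and 29.2 in all libraries, and neither passed between the sides in *Spalax* (adjusted p from 0.318 to 0.872). In the UIS library of mouse M512, 0 of 13982842 reads were miR-23b-5p, which allows a share of up to 2.15e-05%, for counting error only. Both were too low to be tested in mice. miR-3074-5p, from the antisense hairpins, did not pass in any of the 3 comparisons of the sides (adjusted p from 0.169 to 0.686). miR-181c-5p and miR-181d-5p lie on the minus strand, 29556 and 29730 bases before Mir23a, and did not pass either, with log2 fold changes between the sides from -0.59 to 0.62.

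Members of a cluster were also compared by their profile over the libraries, as a description, since the 8 *Spalax* or 6 mouse libraries share the contrast between the sides. In *Spalax*, Pearson's r of log2(normalized count + 1) was 0.96 between miR-23b-3p and miR-27b-3p, 0.98 between miR-27b-3p and miR-27b-5p and 0.96 between miR-27b-3p and miR-24-3p. It was 0.66 between miR-23a-3p and miR-27a-3p and -0.39 between miR-27a-3p and miR-27a-5p. Across clusters it was 0.65 between miR-23a-3p and miR-23b-3p and 0.41 between miR-27a-3p and miR-27b-3p. In mice it was 0.97 between miR-23b-3p and miR-27b-3p, 0.92 between miR-23a-3p and miR-27a-3p and 0.40 between miR-27a-3p and miR-27b-3p. miR-24-3p was at 0.93 with miR-23b-3p and 0.87 with miR-23a-3p in mice.

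Among 232 other microRNAs outside the muscle list with a mean of at least 100 in both tables, those most like each 3p member were ranked by the lesser of their r in *Spalax* and in mice. For miR-27b-3p these were miR-128-3p (lesser r 0.90), miR-378a-3p (0.88) and miR-378a-5p (0.88), of which miR-378a is transcribed with the metabolic coactivator gene *Ppargc1b*. For miR-23b-3p they were miR-22-5p (0.85), miR-30a-5p (0.84) and miR-378d (0.84), and for miR-24-3p miR-30d-3p (0.93), miR-190b-5p (0.92) and miR-149-5p (0.90). For miR-23a-3p they were let-7d-3p (0.87) and both strands of the endothelial miR-126a (0.83 and 0.82 for miR-126a-3p and miR-126a-5p). For miR-27a-3p they were miR-29a-3p (0.77), which targets collagen messages, miR-30e-5p (0.73) and miR-1843b-5p (0.70).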

How the data were processed

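Small-RNA libraries of 4 *Spalax* and 3 mice were grouped by species, diagnosis and side as the sample labels give them. Per the study's methods, the authors trimmed adaptors and mapped the reads with mirDeep, and the build and settings of this mapping are not given in the sources used here. The submitters' processing notes name GRCm38, TopHat 1.4.1, HTSeq and DESeq without a role. The authors deposited a signal per microRNA and library, namely read counts scaled by a size factor. For 100% of the values, multiplication by the factor gave whole reads within 0.01. The factors equal median-of-ratios factors over the 6 mouse libraries (mouse table) or all 14 libraries (*Spalax* table, although it holds 13 of them), which is why the species were fitted apart.

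The main test was limma 3.58.1 in R 4.3.3 on log2(value + 1), with the trend option. A microRNA was tested if 2 or more *Spalax* libraries, or for the mouse fit 3 or more libraries of mice, reached a value of 10. All 8 *Spalax* libraries entered 1 model, whose terms were the 4 combinations of diagnosis and side. Ratios of a to b, each as log2((a + 1)/(b + 1)) of the values, were tested in Python 3.11.15 by exact permutation. The alternatives were edgeR 4.0.16 and DESeq2 1.42.0 on the recovered reads, library totals, factors without muscle microRNAs, no filter, a pseudocount of 0.1, no trend, a replicate block, a fit on the compared libraries alone, and omission of each library in turn. The limma, edgeR and DESeq2 fits were tried on simulated reads first, and the exact tests of the ratios were not. Those reads had a fixed spread and as many rises as falls, and the dependence on scaling was not tried with them.

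Same-numbered IS and UIS libraries come from the same animal, by the labels. The deviations of paired libraries from their group means had a correlation of 0.0933 for granuloma and 0.00405 for *Spalax* fibrosarcoma, and of 0.122 and -0.107 for mice M512 and M1023. Replicates differed by more than sampling noise (chi-square per degree of freedom at least 376). Reads carry no molecular identifiers, so shares cover counting error only. The members and marker lists were chosen with earlier results of these data known. The text names the members, the other strands of their hairpins, the antisense miR-3074, the neighbors miR-181c and miR-181d, and the 3 microRNAs most like each 3p member.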

Additional observations from a re-analysis of the deposited data

How the results depend on the processing

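The directions of the changes between the sides depended on scaling. Scaled to library totals, miR-23a-3p was at 1.59, 1.50 and 0.87, miR-27a-3p at 1.37, 1.62 and 1.85 in granuloma, *Spalax* fibrosarcoma and mouse fibrosarcoma, miR-23b-3p at 0.35 and miR-24-3p at 0.017 in granuloma, and miR-23b-3p, miR-27b-3p, miR-24-3p and miR-27b-5p at 0.59, 1.45, 1.39 and 1.38 in mice, all with the sign turned, as did miR-24-2-5p in *Spalax* fibrosarcoma (0.62) and mice (1.96) and miR-24-1-5p in mice (1.73). The number of members called in granuloma was then 3, beside 303 of all 447 microRNAs tested. In granuloma it ranged from 3 to 5 when a library was left out, with 3 without the IS library of animal Sp600 or the UIS library of animal Sp976, and from 3 to 4 in *Spalax* fibrosarcoma. The granuloma omissions that left 3 members also lowered the number called over all microRNAs. In mice the main fit called 316 of 547 microRNAs. The number of members called in mice was 1 with edgeR and TMM factors, beside 311 of 547 microRNAs. It was 1 with the replicate block, which pairs the sides by animal, beside 227. With a library left out it ranged from 1 to 5. It was 5 without the tumor of mouse M512, beside 320. It was 1 without the tumor of mouse M1019 (beside 280) or M1023 (238), the UIS library of mouse M1023 (213) or the unnumbered one (257). The block changed no other member's call.

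Uncalled values near 0 changed sign. In mice miR-27a-5p was -0.024 with DESeq2 and -0.020 with edgeR and median-of-ratios factors, and from -0.31 to 0.36 with a library left out. In *Spalax* fibrosarcoma miR-27a-3p ranged from -0.34 to 0.21 with a library left out. The difference between the *Spalax* tumor types turned to 0.19 and 0.20 with edgeR and TMM factors and 0.093 and 0.076 with library totals for miR-23a-3p and miR-24-3p, and with a library left out it ranged from -0.19 to 0.061, from -0.33 to 0.16 and, for miR-27b-5p, from -0.17 to 0.82.

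For the a to b ratio, pairing by animal gave 1.07, 1.46 and 3.36 for miR-23-3p, miR-27-3p and miR-27-5p, none past the threshold. *Spalax* alone gave 1.63, 2.12 and 4.55 and mice alone 0.29, 0.40 and 1.06. With a library left out the ranges were 0.87 to 1.40, 1.17 to 1.73 and 2.59 to 3.60. The miR-23-3p call was lost without either side of *Spalax* Sp2230 (1.08 and 0.92 without UIS and IS) or Sp2240 (1.03 and 0.87), the granuloma of animal Sp600 (0.96) or the tumor of mouse M1019 (1.05). With 2 libraries in each *Spalax* group, leaving 1 out rests on the spread of the other groups. Depth limits miR-27a-5p and the miR-24 5p strands, with under 20 reads in single libraries.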
